A study of Mus musculus with 8 samples.

Results

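The 10 genes described here encode sialyltransferases: St3gal1 to St3gal6, St6gal1, St8sia1, St8sia4 and St8sia6. They were picked by name, and the list was drawn up with earlier results on these arrays known, so their differences between genotypes are a description and no independent support for one another. A feature is a set of probes for 1 transcript. Of the 10 genes, 9 had at least 1 feature carrying their name, with 21 features in all, among 24171 named genes and 44170 features on the array. St3gal5 matched no feature name and was not analysed here. Where a gene had several features, the one chosen by the highest mean log2 intensity over all 8 arrays stands for it, a choice that uses no genotype.

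RNA of 8 mouse spleens was hybridised with Cy3 to 1-colour NimbleGen arrays, 4 from miR-155 knockout mice and 4 from wild-type mice, to compare gene expression with and without this microRNA. Knockout animals Mim1-5 and Mim1-6 are labelled female and Mim2-2 and Mim2-3 male. Wild-type animals 1 and 3 are labelled female and 2 and 4 male. Among knockout animals the labelled sex and the name prefix cannot be told apart, and strain, age and the way the allele was made are not given in the sources used here. A spleen is a mixture of cells, so fewer cells of a type and less RNA per cell cannot be told apart in these values.

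Sialyltransferases sit in the Golgi and move sialic acid from its activated nucleotide form to the ends of sugar chains on proteins and lipids. The St3gal and St6gal enzymes cap galactose at different positions, and the St8sia enzymes add sialic acid to another sialic acid. In lymphoid tissue these caps form part of the ligands of selectins, which slow leukocytes on vessel walls, and of Siglecs, receptors that restrain B cells and myeloid cells.

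The microRNA missing from the knockout animals is printed with its seed, bases 2 to 8, in capitals, since it defines the groups. The promoter windows are those of St8sia6 and St3gal4, the members with the lowest differences, and of St6gal1, the one member whose brightest feature separated the genotypes. They come from RefSeq, build GRCm38.p6, and run from 250 bases before to 50 bases after an annotated start, on the gene's strand. Capitals mark GGGCGG, the GC box, or its reverse complement. St6gal1 has 3 annotated starts, at chr16:23224490-23224789, chr16:23225771-23226070 and chr16:23290220-23290519 on the plus strand. The St3gal4 window is chr9:35116815-35117114 and the St8sia6 window chr2:13793471-13793770, both on the minus strand. The microRNA is encoded at chr16:84714143-84714165 on the plus strand.
mmu-miR-155-5p: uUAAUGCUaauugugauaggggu
St6gal1 start 1: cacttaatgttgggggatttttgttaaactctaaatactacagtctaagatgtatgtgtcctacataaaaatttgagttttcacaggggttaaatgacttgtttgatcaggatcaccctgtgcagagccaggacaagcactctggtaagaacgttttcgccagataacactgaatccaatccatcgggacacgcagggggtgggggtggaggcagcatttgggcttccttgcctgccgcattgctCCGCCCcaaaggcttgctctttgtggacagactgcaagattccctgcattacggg
St6gal1 start 2: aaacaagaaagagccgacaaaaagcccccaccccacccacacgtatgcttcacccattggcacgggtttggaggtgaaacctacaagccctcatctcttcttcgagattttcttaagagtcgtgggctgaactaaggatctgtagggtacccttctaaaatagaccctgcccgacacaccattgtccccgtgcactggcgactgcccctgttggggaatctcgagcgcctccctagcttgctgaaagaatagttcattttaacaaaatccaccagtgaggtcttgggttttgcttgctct
St6gal1 start 3: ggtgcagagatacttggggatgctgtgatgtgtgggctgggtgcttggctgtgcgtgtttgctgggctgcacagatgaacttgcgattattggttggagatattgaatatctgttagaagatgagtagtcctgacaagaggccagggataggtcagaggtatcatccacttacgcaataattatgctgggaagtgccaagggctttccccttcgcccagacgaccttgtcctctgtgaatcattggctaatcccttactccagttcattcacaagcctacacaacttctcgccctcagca
St3gal4: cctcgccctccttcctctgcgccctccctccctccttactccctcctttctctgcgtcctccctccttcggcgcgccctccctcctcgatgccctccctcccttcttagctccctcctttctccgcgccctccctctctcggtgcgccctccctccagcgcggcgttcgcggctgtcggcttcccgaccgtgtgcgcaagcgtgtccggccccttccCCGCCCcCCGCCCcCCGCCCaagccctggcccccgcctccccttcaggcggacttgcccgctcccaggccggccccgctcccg
St8sia6: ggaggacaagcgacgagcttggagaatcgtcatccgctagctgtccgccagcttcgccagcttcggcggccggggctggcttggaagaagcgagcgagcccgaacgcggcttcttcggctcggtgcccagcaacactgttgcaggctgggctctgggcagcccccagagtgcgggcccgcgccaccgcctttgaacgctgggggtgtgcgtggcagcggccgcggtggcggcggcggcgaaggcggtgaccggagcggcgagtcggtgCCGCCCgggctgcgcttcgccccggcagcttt

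These windows differ most in CpG dinucleotides. St8sia6 holds 39, more than 95.6% of the 32851 RefSeq windows of 300 bases, and St3gal4 holds 31, more than 89.4%. The St6gal1 windows hold 7, 10 and 6, near the median of 7 over all windows. In all, 8 of the 10 genes had 11 windows in the table. GGGCGG lay on either strand of 8 of these 11 windows, against 35.7% of all windows. The STAT-type motif TTCNNNGAA lay in 0 of 11 against 8.3% of all, the octamer ATTTGCAT in 0 against 1.7% and TATAAA in 0 against 13.6%, each on both strands and with no overlap in the printed windows. A match is a run of letters and no measured binding.

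The deposited RMA values had a median intensity per array of 112.1 to 119.1 on the linear scale. These values were already normalized, so like medians are no check of the hybridisations. The array's random probes, the background, read 30.7 to 37.7, which is 4.94 to 5.24 on the log2 scale. The arrays of Mim2-2 and Mim2-3 stood apart, with a highest correlation to any other array of 0.877 and 0.874, against 0.933 to 0.943 for the other 6. These 2 are called the Mim2 arrays. Of the Y-linked gene Ddx3y, the brightest feature, AK160604, averaged log2 7.82 on arrays labelled female and 7.76 on those labelled male. It did not separate the labelled sexes, but it did separate the genotypes. The values were 8.39 to 8.83 in knockouts of both labelled sexes and 6.26 to 7.33 in wild type. AK020213 and BC051046 separated the genotypes too, while BC021453 overlapped, with 7.05 in Mim2-3 and 7.36 in wild-type animal 2. None of these features separated the labelled sexes, so the labelled sex used to split the values is not borne out by this gene. The miR-155 host transcript BIC has 1 feature, at chr16:84713276-84715489 in MM9, with 5.28 to 7.51 in knockouts and 4.84 to 5.63 in wild type. Whether its probes lie inside the deletion is unknown, so it does not check the genotype. Of the lists of cell type markers, 12 of 12 B cell genes lay above the random probes on all 8 arrays. Of the 24 mammary epithelium genes 20 did so too, with list means of log2 10.96 to 11.29 in wild-type spleens, although the labels give spleen as the only tissue.

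No member passed the knockout against wild type test (limma with labelled sex as a term, Benjamini-Hochberg over all features, threshold 0.05), in which 0% of the 44170 features passed. St6gal1, the enzyme that caps N-glycans on B cells, and St3gal6 were higher in knockout spleens by 1.14 and 1.55 on the log2 scale. St3gal4 and St8sia6 were lower, with differences of -1.72 and -2.27. St6gal1 alone separated the genotypes on every array. The shifts of St6gal1, St3gal4 and St3gal6 were largest on the Mim2 arrays, and St8sia6 lay below the wild-type range on those alone. Without both Mim2 arrays the difference was 0.49 for St6gal1 and 0.77 for St8sia6. Over the 9 measured genes, 5 were higher and 4 lower with a median difference of 0.61, against a median of 0.06 over all genes, of which 13034 were higher and 11137 lower. The members' median was 0.29 with wild-type animal 4 left out, 0.34 with animal 1 or both Mim2 arrays left out, and -0.07 with each gene's features averaged. At an unadjusted limma p under 0.05 were 2 members higher, St6gal1 and St3gal6, against 7.7% of all genes, and 1 lower, St3gal4, against 6.62%. Knockout lay above wild type on every array for 1 of 9 members against 5.27% of all genes, and below on every array for 0 of 9 against 2.56%. With counts this small, none of these shares sets the members apart from the background.

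**Figure D1:**
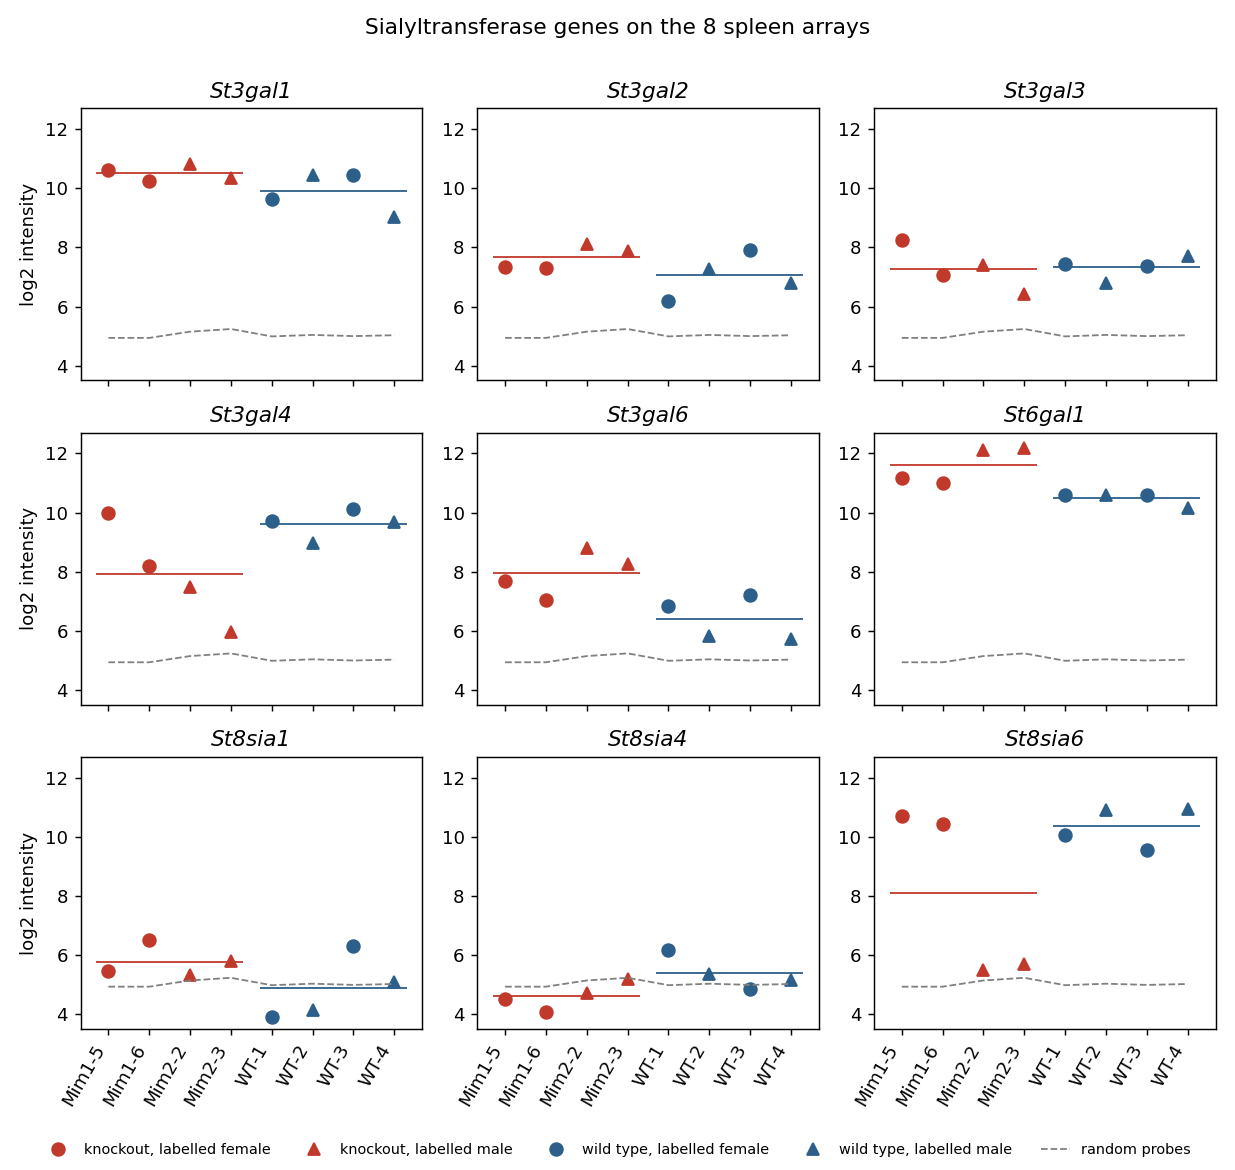
Log2 intensity of the brightest feature of each of the 9 measured sialyltransferase genes on the 8 arrays, 1 point per array. Points are marked by genotype and labelled sex, with the random probes as the background level. St6gal1 has all 4 knockout points above the wild-type points, and St8sia6 has the Mim2 points near 5.52 to 5.72 with the other 6 at 9.55 to 10.93.

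The St3gal enzymes attach sialic acid to the third position of galactose. St3gal1, which caps the core of O-glycans, read log2 10.63 and 10.26 in knockouts Mim1-5 and Mim1-6, then 10.83 and 10.36 in Mim2-2 and Mim2-3. Wild-type animals 1 to 4 had 9.64, 10.46, 10.46 and 9.02. The groups overlapped, since wild-type animals 2 and 3 lay among the knockouts while 1 and 4 lay below all of them. The means were 10.52 ± 0.26 (SD, n = 4) and 9.9 ± 0.7 (SD, n = 4), a difference of 0.62 ± 0.39 (SE; limma adjusted p = 0.497), which was 0.29 without wild-type animal 4. A further St3gal1 feature, AK169958 at chr15:67005198-67008288 in MM9, separated the genotypes on every array. It read 9.59, 9.22, 9.55 and 9.34 in knockouts and 8.75, 8.51, 8.72 and 8.83 in wild type, a difference of 0.72 ± 0.27 (SE; limma adjusted p = 0.312) with the Mim1 and Mim2 arrays alike. The remaining feature, BC099670, differed by -0.13 ± 0.42 (SE), so the gene's features did not all point one way.

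St3gal2 acts on O-glycans and gangliosides. It read log2 7.33, 7.31, 8.13 and 7.89 in the 4 knockouts, in the order used above, and 6.2, 7.28, 7.91 and 6.81 in wild type. Wild-type animal 1 was lowest and animal 3 lay within the knockout range, so the groups overlapped. The difference was 0.61 ± 0.4 (SE; limma adjusted p = 0.518), or 0.34 without wild-type animal 1 and 1.03 without animal 3. Its other features, BC015264 and AK029246, were higher by 0.39 ± 0.38 and 0.84 ± 0.34 (SE). The 3 features of St3gal2 shared a direction, and none passed the test.

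St3gal3, which caps N-glycans, showed no shared shift. It read log2 8.25, 7.06, 7.4 and 6.43 in knockouts against 7.44, 6.78, 7.36 and 7.71 in wild type. The highest and the lowest of the 8 values were both knockouts, Mim1-5 and Mim2-3. The difference was -0.04 with a 95% interval of -0.94 to 0.86, which leaves room for a change in either direction. Its other feature, BC006710, differed by -0.11 ± 0.44 (SE).

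St3gal4 takes part in making selectin ligands on leukocytes and caps plasma glycoproteins. Its feature, BC011121 at chr9:34854338-34924340 in MM9, read log2 10 and 8.19 in the Mim1 pair and 7.48 and 5.97 in the Mim2 pair. Wild-type animals 1 to 4 read 9.73, 8.97, 10.11 and 9.68. Mim1-5 was at the wild-type level and the other 3 knockouts lay below all wild-type arrays, with Mim2-3 lowest. The means were 7.91 ± 1.67 (SD, n = 4) and 9.63 ± 0.48 (SD, n = 4). The difference was -1.72 ± 0.56 (SE), with a 95% interval of -2.99 to -0.45 (limma adjusted p = 0.292). The other St3gal4 feature, BC050773, ordered the knockouts the same way, with 9.79, 7.77, 7.69 and 6.41 against 9.58, 8.83, 9.22 and 9.44 in wild type. Its difference was -1.35 ± 0.54 (SE; limma adjusted p = 0.333).

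St3gal6 shares N-acetyllactosamine acceptors with St3gal4 and also contributes to selectin ligands. Its feature, AK162619 at chr16:58470654-58524359 in MM9, read log2 7.68, 7.04, 8.82 and 8.26 in knockouts and 6.83, 5.84, 7.22 and 5.74 in wild type. The Mim2 arrays were highest, and Mim1-6 lay just below wild-type animal 3. The difference was 1.55 ± 0.5 (SE), 2.92-fold with a 95% interval of 0.43 to 2.66 on the log2 scale (limma adjusted p = 0.288). St3gal4 and St3gal6 thus lay on opposite sides of wild type, each furthest from it on the Mim2 arrays. Of the other St3gal6 features, AK033562, BC052338 and AK194005 were higher by 0.82 ± 0.45, 0.67 ± 0.49 and 0.24 (SE where given), and BC026197 differed by -0.31.

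St6gal1 makes the sialylated N-glycans that the B cell receptor CD22 binds. Its brightest feature, BC027833, lies at chr16:23321151-23360420 in MM9. The knockout values were log2 11.16 and 11 for the Mim1 pair and 12.12 and 12.2 for the Mim2 pair. The wild-type values were 10.61, 10.58, 10.58 and 10.14. All 4 knockouts lay above all wild-type arrays, the Mim1 pair by the smaller step and the Mim2 pair by the larger. The means were 11.62 ± 0.63 (SD, n = 4) and 10.48 ± 0.22 (SD, n = 4). The difference of 1.14 ± 0.34 (SE) is 2.21-fold, with a 95% interval of 0.38 to 1.91 on the log2 scale (limma adjusted p = 0.277).

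The other St6gal1 feature, D16106, went the opposite way. It ends at the same base, 23360420, and starts 30.6 kb further upstream, at 23290589 in MM9. It read log2 6.8, 7.01, 4.91 and 6.27 in knockouts and 7.14, 6.56, 8.23 and 8.52 in wild type. Mim2-2 was below the random probes and wild-type animals 3 and 4 were highest, and Mim1-5 and Mim1-6 lay between wild-type animals 2 and 1. The difference was -1.37 ± 0.54 (SE; limma adjusted p = 0.329). As the mean of both features the St6gal1 difference was -0.11, so its direction rests on the feature used. The 3 RefSeq starts of St6gal1 printed above are given in another build, and which start each feature's probes report on is not known.

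**Figure D2:**
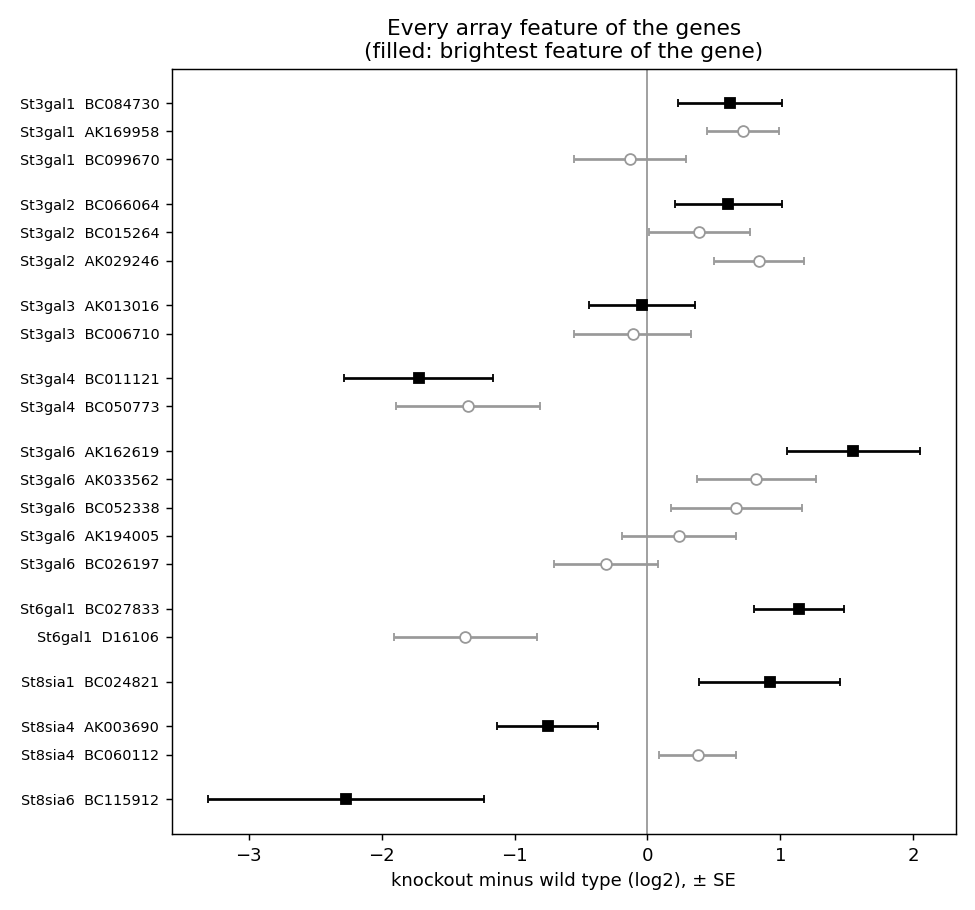
Knockout minus wild type difference in log2 intensity, ± SE, for each of the 21 features of the 9 genes. The brightest feature of each gene is marked, and St6gal1 has its features on both sides of 0, at 1.14 and -1.37.

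B cell markers moved with St6gal1. The B cell list averaged log2 9.93 and 9.72 on the Mim1 arrays, 10.61 and 10.42 on the Mim2 arrays, and 8.52 to 9.02 in wild type. Of its 12 genes 11 were higher in knockouts, 10 of them at an unadjusted limma p under 0.05, against 7.7% of all genes. T cell markers, 12 of 12 higher, averaged 8.55 to 9.21 in knockouts and 7.67 to 8.26 in wild type. The part of either list in the St6gal1 difference was not tested. The receptor Cd22 itself read 9.1, 7.99, 9.99 and 8.77 in knockouts and 8.09, 7.84, 8.14 and 7.42 in wild type, overlapping only in Mim1-6, with a difference of 1.09 ± 0.43 (SE; limma adjusted p = 0.333).

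The St8sia enzymes extend sialic acid with more sialic acid. St8sia1, which makes the ganglioside GD3, was near background. It read log2 5.46, 6.53, 5.35 and 5.82 in knockouts, above the random probes on 4 of 4 arrays. In wild type it read 3.92, 4.15, 6.33 and 5.1, above them on 2 of 4. The groups overlapped through wild-type animal 3, and the difference was 0.92 ± 0.53 (SE; limma adjusted p = 0.467). With values floored at the random probes the difference was 0.42.

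St8sia4 builds polysialic acid chains. It was below the random probes on all 4 knockout arrays, with log2 4.54, 4.1, 4.74 and 5.19, and above them on 3 of 4 wild-type arrays, with 6.18, 5.38, 4.85 and 5.17. Its knockout level is therefore only a bound. With the knockouts set at the random probes, mean 5.07, the wild-type mean of 5.39 was 1.25-fold higher for this feature. That ratio is no lower limit on a fall, since the groups overlapped and wild-type animal 3 was itself below the random probes. The fitted difference was -0.75 ± 0.38 (SE; limma adjusted p = 0.408), with a 95% interval of -1.61 to 0.1. The choice of feature was a near tie here, with means over all arrays of 5.02 for AK003690 and 5.01 for BC060112. BC060112 pointed the other way, at 0.38 ± 0.29 (SE), and was above the random probes on 2 of 4 knockout and 1 of 4 wild-type arrays. With its features opposed, no direction can be given for the gene.

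St8sia6 forms disialic acid on O-glycans and glycolipids. Its single feature, BC115912, lies at chr2:13578331-13715102 in MM9. It read log2 10.71 in Mim1-5 and 10.45 in Mim1-6, but 5.52 in Mim2-2 and 5.72 in Mim2-3. Wild-type animals read 10.08, 10.91, 9.55 and 10.93. The Mim2 arrays were close to the random probes, and the Mim1 arrays lay within the wild-type range. The means were 8.1 ± 2.87 (SD, n = 4) and 10.37 ± 0.68 (SD, n = 4). The difference over all animals was -2.27 ± 1.04 (SE), with a 95% interval of -4.61 to 0.08 (limma adjusted p = 0.372). Without both Mim2 arrays it was 0.77.

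**Figure D3:**
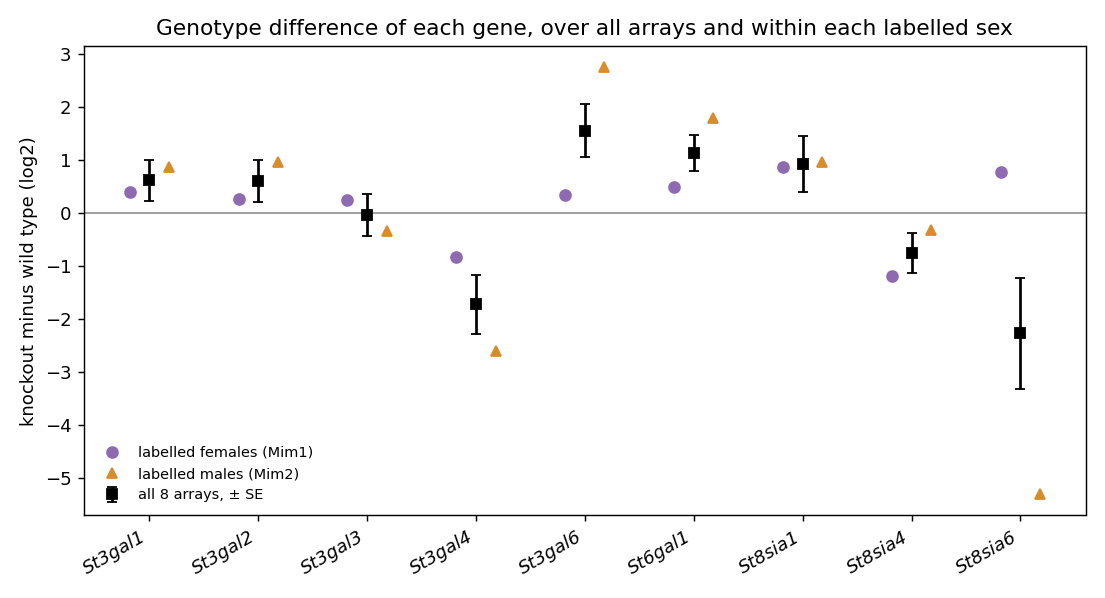
Knockout minus wild type difference in log2 intensity of the 9 genes, over all animals (± SE) and within animals labelled female and male. St8sia6 is at 0.77 in females and -5.3 in males, and the St3gal6 and St6gal1 points for males lie above those for females.

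Within animals labelled male, where the knockouts are the Mim2 arrays, 3 members passed the test across all features. St3gal6 rose by 2.75 and St6gal1 by 1.8 on the log2 scale (limma adjusted p = 0.0242 and 0.0368), and St8sia6 fell by 5.3 (limma adjusted p = 0.0216). Of all genes 1.05% passed as higher in males and 3.21% as lower. St3gal4 differed by -2.6 there and did not pass (limma adjusted p = 0.0814). Within animals labelled female 0% of features passed, and the same members differed by 0.34 for St3gal6, 0.49 for St6gal1, 0.77 for St8sia6 and -0.83 for St3gal4. With 2 animals per genotype and sex these calls rest on few arrays. Left without Mim2-2, or without any 1 wild-type animal, 0 of the 3 members passed. Without Mim1-5 or Mim1-6 there was 1, and without Mim2-3 there were 2. With 1 array left out, the differences themselves stayed at -5.4 to -5.2 for St8sia6, 2.47 to 3.03 for St3gal6 and 1.58 to 2.01 for St6gal1. As the mean of each gene's features, the difference in males was 1.24 for St3gal6 and -0.08 for St6gal1. The other St6gal1 feature, D16106, differed by -1.95 in males. The median difference over the members was 0.34 in females and 0.86 in males, against 0.03 and 0.15 over all genes.

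The difference between the sexes was tested as an interaction. It was -6.07 ± 0.52 (SE) for St8sia6 (limma adjusted p = 0.106), with 0% of features past the threshold. For St3gal6 it was 2.41 ± 0.57 (SE; limma adjusted p = 0.186) and for St6gal1 1.31 ± 0.49 (SE; limma adjusted p = 0.317). These 3 members had an unadjusted p under 0.05, against 13.6% of all genes. For St3gal4 it was -1.77 ± 1.01 (SE; limma adjusted p = 0.491). In the authors' series table, which keeps 21856 features, and with a trended and robust variance, the St8sia6 interaction passed at adjusted p = 0.0191 and 0.00273 (limma). In those settings 311 of the 21856 features and 578 of the 44170 features passed in all.

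The mammary epithelium list was low on the Mim2 arrays, as St8sia6 was, and the adipocyte list was high there. The mammary epithelium list averaged log2 7.94 in Mim2-2 and 9.07 in Mim2-3, against 10.42 to 11.29 on the other 6 arrays, with 23 of its 24 genes lower in knockouts and none at or below the random probes on every array. The adipocyte list, with 6 of 7 genes measured, averaged 10.94 and 10.67 on the Mim2 arrays against 7.44 to 7.9 on the other 6. The pancreas list was higher on all 4 knockout arrays, with 9 of 9 measured genes higher, at 7.16 to 8.22 against 5.77 to 6.03. The part of these lists in the St8sia6, St3gal4 and St3gal6 differences was not tested.

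Genes were ranked by how closely their centred log2 values over the 8 arrays followed those of the members with the lowest and the highest difference. Candidates were named genes above the random probes on all 8 arrays, with an SD over the arrays at least 0.5 times the member's. For St8sia6, the closest of 884 candidates were Sox9, Ckmt1 and St6galnac6, with root mean square distances of 0.43, 0.48 and 0.5. Sox9, a transcription factor of epithelial progenitors and cartilage, read 11.1, 10.84, 6.88 and 6.2 in knockouts and 11, 11.03, 10.83 and 11.95 in wild type. St6galnac6, another sialyltransferase, read 11.58, 11.14, 6.87 and 8.03, and 11.53, 11.57, 10.73 and 12.15. Both were low on the Mim2 arrays alone, which follows from their choice by likeness to St8sia6. For St3gal6 the closest of 8380 candidates were Gcgr, Gbp11 and Aptx, at 0.17, 0.26 and 0.27. The distances describe these 8 arrays and share their libraries.

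**Figure D4:**
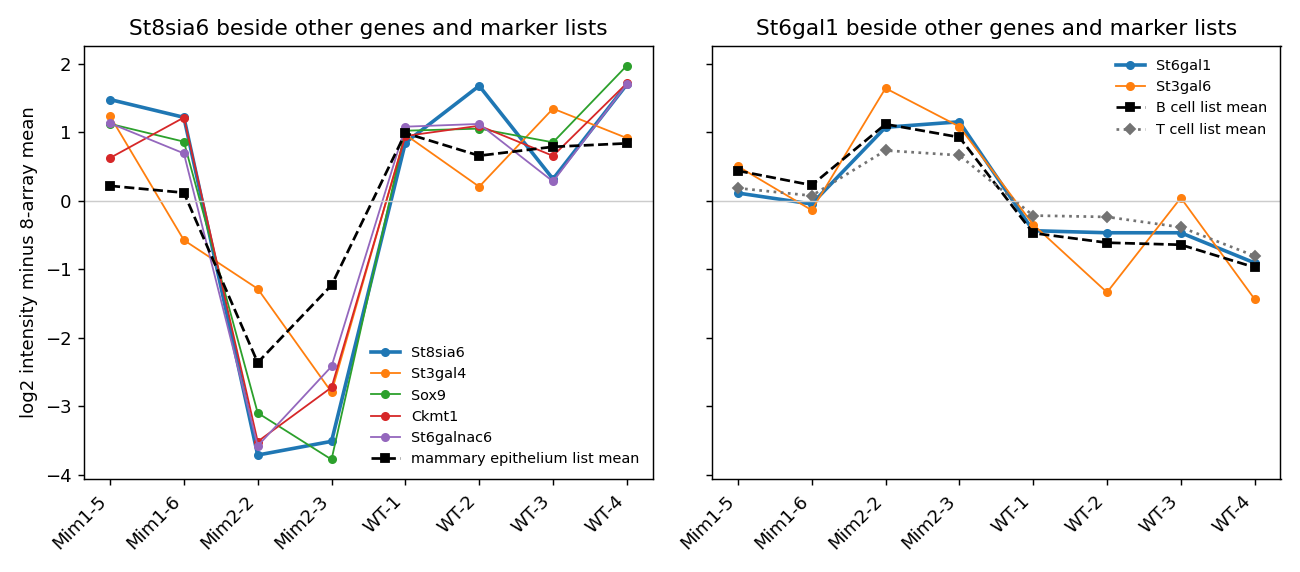
Log2 intensity over the 8 arrays, centred on the mean of each gene or list. The left panel shows St8sia6, St3gal4, the 3 genes closest to St8sia6 and the mammary epithelium list mean. The right panel shows St6gal1, St3gal6 and the B cell and T cell list means. The lines on the left are lowest on the arrays Mim2-2 and Mim2-3, and those on the right are highest there.

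The rest of the sialic acid pathway was given by lists of named genes, none with a gene that passed between genotypes (limma). Of the 10 other sialyltransferases 4 were higher and 6 lower, with a median difference of -0.17 against 0.06 over all genes. St6galnac6 had the largest of the differences named here, at -2.09 ± 0.85 (SE; limma adjusted p = 0.336), while St6galnac3 differed by 0.54 ± 0.29 (SE; limma adjusted p = 0.437). St8sia2 was near background, above the random probes on 2 of 4 knockout and 1 of 4 wild-type arrays. Of 6 genes that supply activated sialic acid, 1 was higher and 5 lower with a median of -0.52. The one higher was Cmah, which converts one form of sialic acid to another, at 0.82 ± 0.29 (SE; limma adjusted p = 0.307). Gne, the entry enzyme of sialic acid synthesis, read 10.88, 11.95, 8.28 and 8 in knockouts against 10.59, 10.87, 9.76 and 11.25 in wild type, low on the Mim2 arrays. Of 8 genes that remove or edit sialic acid, 6 were lower, with a median of -0.65. Among them were the lysosomal sialidase Neu1, at -1.22 ± 0.44 (SE; limma adjusted p = 0.311), and its partner Ctsa, at -1.07 ± 0.44 (SE; limma adjusted p = 0.341). Both were low on the Mim2 arrays, with differences of -0.23 and -0.02 in females and -2.2 and -2.11 in males, as the mammary epithelium list was, whose part was not tested.

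Siglecs are the receptors that read sialic acid. Of 9 measured Siglec genes 8 were higher, with a median difference of 0.83, and 3 lay above wild type on every knockout array, against 5.27% of all genes. These were Siglece, an inhibitory receptor of myeloid cells, Siglech of plasmacytoid dendritic cells, and Siglecg of B cells. Siglece read 9.06, 8.96, 9.67 and 9.99 in knockouts and 7.93, 8.44, 7.82 and 7.96 in wild type, with the Mim1 and Mim2 arrays both above. Its difference was 1.39 ± 0.28 (SE; limma adjusted p = 0.262), followed by Siglech at 1.31 ± 0.37 and Siglecg at 0.78 ± 0.27. The macrophage list, with 10 of 11 measured genes higher, averaged 10.06 to 10.88 in knockouts and 9.68 to 10.15 in wild type. The neutrophil list went the other way, with 8 of 11 genes lower. It averaged 8.24 to 8.66 in knockouts and 8.93 to 9.09 in wild type. The part of either list in these differences, and that of the B cell and T cell lists, was not tested.

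Selectins and the enzymes of their ligands, which work beside St3gal4 and St3gal6, were split, with 7 of 13 measured genes higher and a median of 0.19. Chst2, a sulfotransferase, and Gcnt1, which branches O-glycans, differed by -1.07 and -1.14. Of 5 measured genes of glycolipid synthesis, the wider pathway of St8sia1, 3 were lower. B4galnt1 read 13.47, 13.1, 8.88 and 11.17 in knockouts and 13.87, 14, 13.35 and 13.71 in wild type, lowest on the Mim2 arrays as St8sia6 was. Of the 4 carriers of polysialic acid, 3 were lower with a median of -0.43, Cadm1 by the most at -1.18 ± 0.55 (SE; limma adjusted p = 0.382). The Cadm1 difference was -0.01 in females and -2.35 in males.

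**Figure D5:**
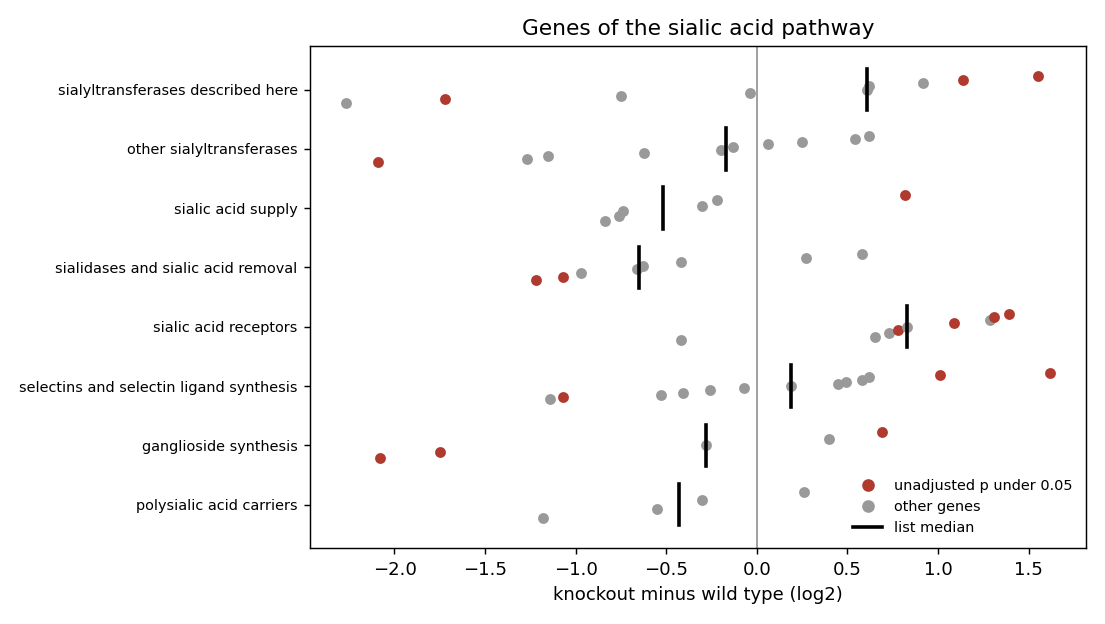
Knockout minus wild type difference in log2 intensity of each measured gene in the sialyltransferase list and the other lists of the sialic acid pathway, 1 point per gene, with the median of each list. The Siglec list has its median at 0.83 and the list of sialic acid removal at -0.65.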

How the data were processed

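The authors deposited 1 table per array with a linear intensity per feature, made with RMA per the submitters' processing notes (no version given), on build MM9 per the file headers. A standard error score per feature, also deposited by the authors, entered no test. Intensities were taken to log2 with no second normalization. Differences were fitted in R 4.3.3 by limma 3.58.1 (two-sided tests) with labelled sex as an additive term and in a further fit its interaction with genotype, adjusted by Benjamini-Hochberg over 44170 features at 0.05. The entry of random probes served as background. The series' deposited table holds 21856 of the features, equal within a relative tolerance of 1e-05. Symbols came from RefSeq, GRCm38.p6, for 21583 of 24203 Entrez numbers.

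Members and gene lists were chosen with earlier results of these data known. All members were named, up to 4 genes of each pathway list by smallest p, lists of 6 or fewer whole where needed, and the 3 genes closest to the members with the highest and the lowest difference. Alternatives changed the source table, normalization, floor, variance model, array weights, the sex term, the features averaged and the arrays left out. Scripts were checked on simulated data. Samples are described as separate spleens, and the number of arrays limits the precision. Slide and scan are not recorded in these tables, so no batch was fitted.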

Additional observations from a re-analysis of the deposited data

Results flagged for a closer look

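Of 18 groups of 4 arrays tested for an outlying sample, 1 was past Dixon's 95% critical value. Wild-type animal 4 had a St6gal1 log2 intensity of 10.14 against 10.58 to 10.61 in the other 3, a gap of 0.931 of the range. Chance flags about 1 in 20 groups. The St6gal1 difference between genotypes keeps its direction without that animal.

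The St8sia6 difference between genotypes differed between animals labelled male and female by -6.07 on the log2 scale, an interaction with a limma adjusted p of 0.106. Every male knockout was below the male wild types, and the females were not.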

How the results depend on the processing

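Each member's difference was recomputed under up to 18 other settings, 159 values in all, of which 152 kept their sign and 0 had an adjusted p under 0.05 (limma, lowest 0.124). The sign turned for St3gal3 (-0.04), which was 0.17 with array weights, 0.25 without both Mim2 arrays and -0.33 to 0.21 when 1 array was left out. St6gal1 was -0.11, and -0.08 within males, as the mean of its features, and St8sia6 was 0.77 without both Mim2 arrays. The median over members was -0.07 as the mean of features. Over all features, trended robust variance called 16 between genotypes and 578 for the interaction, which had 311 in the series table, against 0 for each. Members at an unadjusted p under 0.05, 3 in the fit reported, were 1 by the mean of features, 0 without both Mim2 arrays, and 3 to 6 with 1 array left out, 6 without wild-type animal 3. Members that separated the genotypes on every array, 1 as reported, were 0 by the mean of features, 2 without both Mim2 arrays and 1 to 4 with 1 array left out, 4 without wild-type animal 3. Members called within males, 3 as reported, were 1 by the mean of features, 2 with array weights, 0 to 2 with 1 array left out, and 4 in the series table and with trended robust variance, where St3gal4 was added. Shares over all genes were not computed under these settings, so none of these member counts sets the members apart from the background. Leaving arrays out can only add genes that separate the genotypes. Signal over background limits St8sia1 and St8sia4, whose differences were 0.42 and -0.36 with values floored at the random probes.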
